A study of Homo sapiens with 12 samples.

Results

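The genes described here were 10 genes of the epithelial-mesenchymal transition (EMT), read by Ensembl gene identifier from a table of 62754 genes. They were the transcription factors SNAI1, SNAI2, ZEB1, ZEB2 and TWIST1, the cadherins CDH1 and CDH2, the intermediate filament gene VIM, and the splicing regulators ESRP1 and ESRP2. The set was defined by gene name, with earlier results of these data known. RNA sequencing had been done on PC9, a human lung adenocarcinoma cell line that carries a mutant EGFR and responds to the EGFR inhibitor erlotinib. The 12 libraries formed 4 groups of 3. Untreated WT cells carried wild-type TDP1, the gene of a tyrosyl-DNA phosphodiesterase. DTC (drug-tolerant cells) were TDP1 WT cells kept for 7 days in 1 µM erlotinib, and DTEC (drug-tolerant expanded cells) were TDP1 WT cells kept for 28 days at that dose. KO cells were untreated cells of a single TDP1 knockout line, KO2, and the table held no treated knockout cells. All were grown in the same serum-containing medium, and all libraries carried 1 batch label. Per the series text, the cultures of a condition were split from 1 flask and then kept apart, so p-values measure the spread between such cultures.

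EMT is a programme in which epithelial cells loosen their junctions and take on a motile, fibroblast-like shape. The SNAI, ZEB and TWIST factors bind E-box motifs and repress epithelial genes, CDH1 (E-cadherin, the junction protein of epithelia) among them, while CDH2 (N-cadherin) and VIM (vimentin) are classic mesenchymal products. ESRP1 and ESRP2 set the epithelial pattern of splicing, and miRNAs of the miR-200 family repress ZEB1 and ZEB2, which in turn repress the miR-200 genes. In EGFR-mutant lung cancer, EMT has been described as one state in which cells survive EGFR inhibitors.

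Total counts per library ran from 25572691 to 38373679. Genes with at least 1 count numbered 23429 to 24342 per library in DTC and 20801 to 22402 in the other groups. The share of counts from mitochondrial genes was 4.43% to 5.41% in DTC and 1.82% to 2.78% in the other groups. DTC replicate 1 stood apart from its group: its chi-square per gene against replicates 2 and 3 was 115 and 70.9, while those 2 differed by 17.2. TDP1 was at 10.1 to 11.3 CPM (counts relative to library size, scaled by edgeR's TMM factors) in KO and at 25.1 to 28.1 in untreated WT, and it was also low in DTC, at 12.7 to 15.7. Of 9 markers of lung adenocarcinoma epithelium, KRT7, KRT8, KRT18 and KRT19 were above 829 CPM in every library. Of 8 fibroblast markers, COL1A1 reached 56.8 CPM and the other 7 stayed below 1 CPM. PECAM1 and CDH5 were the endothelial markers with clear counts, with means of 32.0 and 27.7 CPM in untreated WT, whereas VWF reached 1.85 CPM and CLDN5 was at 0 throughout. CD68 and LAPTM5 were the leukocyte markers with clear counts, at up to 53.4 and 55.3 CPM, whereas PTPRC stayed at or below 0.147 CPM.

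The sequences that follow are those of the miR-200 family and of matching sites in the 3′ UTRs of ZEB1 and ZEB2, shown because these 2 genes carry many more such matches than the other members. The mature miRNAs are RefSeq's, given 5′ to 3′ with the seed, bases 2 to 8, in capitals. They fall into 2 seed groups, AAUACUG in the first 3 and AACACUG in the other 2.
hsa-miR-200b-3p: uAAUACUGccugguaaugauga
hsa-miR-200c-3p: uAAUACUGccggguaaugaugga
hsa-miR-429: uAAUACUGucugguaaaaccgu
hsa-miR-200a-3p: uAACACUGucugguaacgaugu
hsa-miR-141-3p: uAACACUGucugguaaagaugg
In the sites, which come from the GENCODE 29 transcripts on GRCh38, capitals mark the 7 bases that pair with a seed. ZEB1 (10:31318495-31529814, + strand) held 9 such matches in a 3′ UTR of 2549 bases, and ZEB2 (2:144364364-144524583, - strand) held 9 in 5370 bases.
ZEB1 3′ site 1: ttatcttatCAGTATTatca
ZEB1 3′ site 5: tttacctatCAGTATTattt
ZEB1 3′ site 7: ttgatttaaCAGTGTTatgt
ZEB2 3′ site 2: accatacatCAGTATTttta
ZEB2 3′ site 3: acaatgcatCAGTATTatga
ZEB2 3′ site 5: caccagcttCAGTGTTaagc
Among 19146 genes, each with its longest 3′ UTR, 6 (0.0313%) had 9 matches or more, ZEB1 and ZEB2 included. Per length, ZEB1 held 3.53 matches per kb and ZEB2 1.68. With very short 3′ UTRs set aside, 0.294% and 2.14% of the genes were as dense or denser. SNAI2 had 1 match and ESRP1 had 2. SNAI1, TWIST1, CDH1, CDH2, VIM and ESRP2 had 0. Mature miRNAs were not measured in these polyadenylated RNA libraries. MIR200CHG, the host transcript of hsa-miR-200c and hsa-miR-141, was counted at a low level. It was at 0.448, 0.405 and 0.288 CPM in untreated WT, at 0.575, 1.21 and 0.792 in DTC, at 1.04, 0.764 and 0.797 in DTEC, and at 0.316, 0.0647 and 0.166 in KO. Both erlotinib groups lay above every untreated WT library. The log2 fold change was 1.17 ± 0.45 (SE) in DTC (edgeR adjusted p = 0.0316) and 1.18 ± 0.45 in DTEC (edgeR adjusted p = 0.0392).

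RefSeq promoter windows on GRCh38.p14, from 250 bases before to 50 after a start site, were at hand for 4 of the 10 members, ZEB1, ZEB2, CDH2 and VIM. Those below belong to members that moved together in DTC. The E-box searched was CAGGTG or its reverse complement CACCTG, on both strands, and is in capitals.
ZEB1 promoter, chr10:31318966-31319265, + strand: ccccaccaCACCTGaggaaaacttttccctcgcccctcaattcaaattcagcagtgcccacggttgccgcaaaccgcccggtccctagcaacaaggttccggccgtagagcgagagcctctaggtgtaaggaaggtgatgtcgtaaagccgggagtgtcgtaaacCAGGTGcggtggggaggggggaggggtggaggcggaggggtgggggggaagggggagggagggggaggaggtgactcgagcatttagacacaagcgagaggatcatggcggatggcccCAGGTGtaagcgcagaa
ZEB2 promoter, chr2:144520070-144520369, - strand: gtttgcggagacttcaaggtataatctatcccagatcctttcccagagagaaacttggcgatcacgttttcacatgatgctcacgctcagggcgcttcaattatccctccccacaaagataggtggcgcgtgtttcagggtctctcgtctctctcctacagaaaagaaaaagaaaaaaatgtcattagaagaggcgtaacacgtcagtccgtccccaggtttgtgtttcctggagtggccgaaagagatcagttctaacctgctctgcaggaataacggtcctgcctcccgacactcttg
VIM promoter, chr10:17227991-17228290, + strand: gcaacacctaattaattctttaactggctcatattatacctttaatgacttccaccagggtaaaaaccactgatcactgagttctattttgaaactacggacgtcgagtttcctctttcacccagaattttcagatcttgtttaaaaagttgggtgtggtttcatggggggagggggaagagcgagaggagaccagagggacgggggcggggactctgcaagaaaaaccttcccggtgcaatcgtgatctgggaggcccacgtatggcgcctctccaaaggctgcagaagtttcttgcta
The ZEB1 window above held 3 E-boxes, which start at -242, -85 and 33 with the start site counted as 0. Another of the 7 ZEB1 windows held 1, and the windows of ZEB2 and VIM held 0. Of all 35116 windows, 20.6% held at least 1. The AP-1 motif TGANTCA was in 0 of the windows of ZEB1, ZEB2 and VIM and in 1 of the 2 windows of CDH2, against 7.71% of all windows. A match describes letters and is not a binding site.

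Within untreated WT cells, the members spanned a very wide range of abundance, and the epithelial genes were at the top. Levels of different genes are compared as TPM (a read share divided by exon length). CDH1 stood at 160 ± 5.62 TPM (SD, n = 3) and ESRP1 at 148 ± 7.81 TPM. ESRP2 followed at 33.8 ± 2.37 TPM. Of the mesenchymal-side genes, SNAI2 was at 11.3 ± 0.514 TPM, SNAI1 at 7.01 ± 0.615 TPM and VIM at 6.99 ± 0.274 TPM. TWIST1, ZEB1 and ZEB2 were at 0.355 ± 0.179, 0.238 ± 0.0969 and 0.0629 ± 0.0161 TPM. ZEB2 was divided by a summed exon length of 25058 bases over all its isoforms, against 8650 for ZEB1, so its TPM depends on that choice. All TPM used such summed lengths, with 5158 bases for VIM, 3392 for SNAI2 and 5563 for ESRP2. The order of these genes therefore depends on that choice too. The same 2 genes led in the erlotinib groups: in DTC, CDH1 was at 203 ± 74.9 TPM and ESRP1 at 110 ± 30.4 TPM, with overlapping libraries. In DTEC, ESRP1 was at 279 ± 42.0 TPM and CDH1 at 234 ± 47.9 TPM, which also overlapped. VIM at 38.9 ± 4.61 TPM and SNAI2 at 36.6 ± 1.16 TPM had reached the level of ESRP2 in DTC, 29.8 ± 4.56 TPM. TWIST1, ZEB2 and ZEB1 remained below 2.26 TPM in every DTC library.

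**Figure D1:**
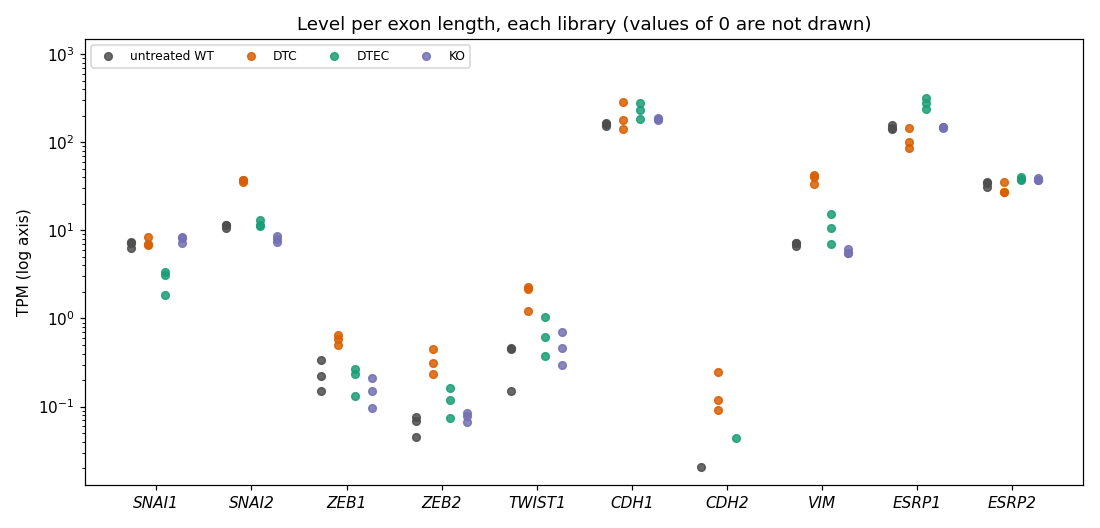
TPM of each member on a log axis, with 1 point per library coloured by group and values of 0 left out. CDH1 and ESRP1 lie above 86 TPM in all 12 libraries, and ZEB1 and ZEB2 stay below 0.65 TPM.

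The first comparison asked what 7 days of erlotinib changed. Of the 10 members, 9 passed the count filter and were tested, and CDH2 was not. In DTC, 5 of the 9 rose, namely SNAI2, ZEB1, ZEB2, TWIST1 and VIM. ESRP1 and ESRP2 fell, and SNAI1 and CDH1 were not called. Over all 17115 genes tested, 67.3% were called in this comparison (34.0% higher and 33.3% lower), so 7 of 9 is close to that background. The libraries of the 2 groups did not overlap for 68.9% of all tested genes. In bulk RNA, fewer cells of a type and less RNA per cell cannot be told apart.

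SNAI2 (SLUG, a zinc-finger repressor) was at 10.6, 11.2 and 11.2 CPM in untreated WT and at 27.9, 32.6 and 29.6 CPM in DTC. Every DTC library was above every untreated one, by a clear gap. The fold was 2.73, a log2 change of 1.45 ± 0.10 (SE; edgeR adjusted p = 2.39e-08).

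ZEB2 was at 0.329, 0.540 and 0.490 CPM in untreated WT and at 2.501, 2.03 and 1.44 CPM in DTC. This zinc-finger homeodomain repressor was thus present at 11 to 17 counts per untreated library and 49 to 74 counts per DTC library, with no overlap. Its log2 change was 2.13 ± 0.35 (edgeR adjusted p = 9.30e-05). ZEB1, its paralog, was at 0.866, 0.371 and 0.548 CPM in untreated WT and at 0.946, 1.44 and 1.26 CPM in DTC. The groups did not overlap, but the gap between the nearest libraries was narrow. The log2 change of ZEB1 was 1.02 ± 0.40 (edgeR adjusted p = 0.0367), with a 95% interval of 0.16 to 1.89. That call was lost with no count filter (edgeR adjusted p = 0.0629). It was also lost without untreated WT replicate 2 (log2 change 0.80, edgeR adjusted p = 0.122) or replicate 3 (0.0876), and without DTC replicate 2 (0.0924) or replicate 3 (0.0709).

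TWIST1, a basic helix-loop-helix factor, was at 0.269, 0.270 and 0.0865 CPM in untreated WT and at 1.01, 1.12 and 0.616 CPM in DTC. The lowest DTC library was above the highest untreated one. The log2 change was 2.13 ± 0.52 (edgeR adjusted p = 0.00235), on 3 to 9 counts per untreated library and 21 to 38 per DTC library. TWIST1 reached the filter's cutoff in 6 of the 12 libraries, 3 of them DTC and 0 untreated WT.

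SNAI1 (SNAIL) was at 3.67, 3.04 and 3.52 CPM in untreated WT and at 2.60, 2.97 and 3.49 CPM in DTC. The groups overlapped. The log2 change was -0.17 ± 0.21 (edgeR adjusted p = 0.485), with a 95% interval of -0.63 to 0.28.

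VIM was at 10.8, 10.5 and 9.86 CPM in untreated WT and at 48.9, 44.9 and 51.1 CPM in DTC. All DTC libraries stood far above the untreated range. The fold was 4.65, a log2 change of 2.22 ± 0.19 (edgeR adjusted p = 1.72e-07).

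CDH2 was nearly silent. It had 1, 0 and 0 counts in untreated WT, 8, 4 and 5 in DTC, 0, 0 and 2 in DTEC, and 0 in each KO library. Its counts were thus mostly in DTC, at up to 0.270 CPM. DTC libraries also had counts for more genes of any kind, 23429 to 24342 against 20801 to 22402 in the other groups. The part of this in the low counts of CDH2, TWIST1, ZEB1 and ZEB2 was not tested. The pooled counts, 17 in DTC and 1 in untreated WT, gave a ratio of 21.8 with an exact 95% interval of 3.41 to 910 that covers counting error only. The pooled ratios of CDH2 were taken over total counts, without TMM factors. Against the 0 counts of KO, the exact 95% lower limit of the ratio was 4.92. With TMM and no count filter, the log2 change of CDH2 in DTC was 3.69. Its edgeR adjusted p was 0.0496, and DESeq2 gave an adjusted p of 0.0846.

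CDH1 was at 278, 289 and 289 CPM in untreated WT and at 392, 227 and 274 CPM in DTC. The untreated libraries were tight, and the DTC libraries lay on both sides of them, with replicate 1 highest. The log2 change was 0.06 ± 0.17 (edgeR adjusted p = 0.766), with a 95% interval of -0.30 to 0.42. Without DTC replicate 1 it was -0.15 (edgeR adjusted p = 0.274).

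ESRP1 was at 223, 196 and 205 CPM in untreated WT and at 156, 108 and 121 CPM in DTC. No DTC library reached the untreated range. Its level fell to 61.7% of untreated, a log2 change of -0.70 ± 0.13 (edgeR adjusted p = 0.000307). ESRP2 was at 50.7, 56.4 and 55.6 CPM in untreated WT and at 43.2, 38.8 and 37.6 CPM in DTC. Its groups did not overlap either. ESRP2 fell to 73.5% of untreated, a log2 change of -0.44 ± 0.09 (edgeR adjusted p = 0.00073).

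**Figure D2:**
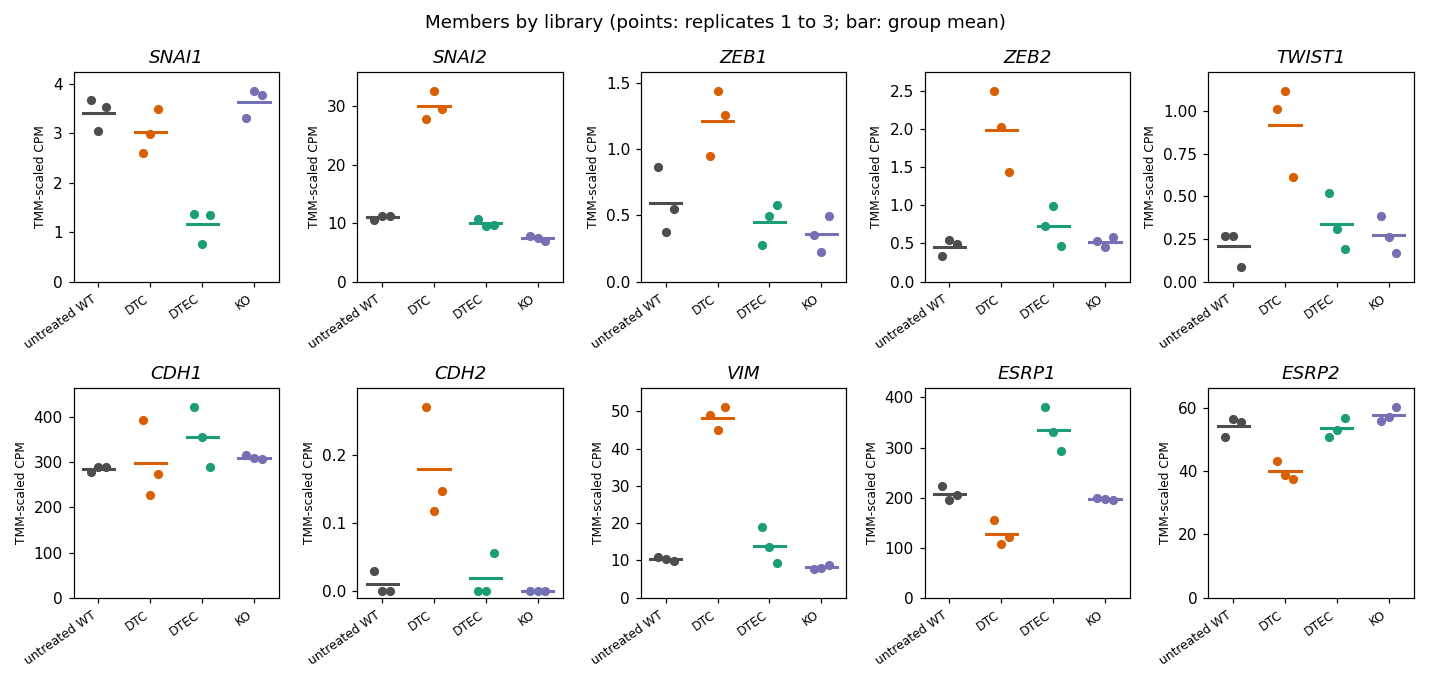
TMM-scaled CPM of each member, with 1 point per library (replicates 1 to 3 from left to right), bars at the group means and a separate vertical scale for each gene. SNAI2 and VIM are high in the 3 DTC libraries alone, while SNAI1 is lowest and ESRP1 highest in the 3 DTEC libraries.

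The size of these changes depended on how libraries were scaled. With total counts alone the median log2 change of all tested genes in DTC moved from 0.06 to 0.41, and 68.4% of the called genes were higher in place of 50.5%. With that scaling SNAI1 was at 0.18 (edgeR adjusted p = 0.454), CDH1 at 0.42 (edgeR adjusted p = 0.0426) and ESRP2 at -0.09 (edgeR adjusted p = 0.406). Relative to the shifted median of 0.41, SNAI1 and ESRP2 were again below the middle of all genes and CDH1 was at it. With upper quartile scaling SNAI1 was at 0.12, and ESRP2 was at -0.16 (edgeR adjusted p = 0.132). The calls of SNAI2, ZEB1, ZEB2, TWIST1, VIM and ESRP1 in DTC held under every scaling tried.

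**Figure D3:**
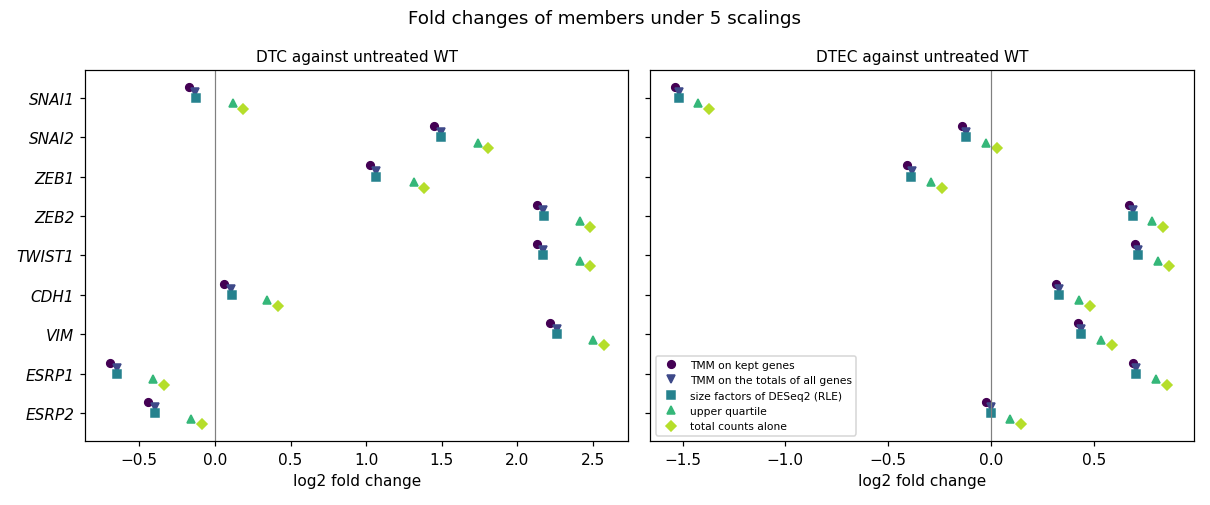
Log2 fold changes of the 9 tested members in DTC and DTEC against untreated WT, with 1 symbol per scaling. Total counts alone moved every member to the right, which took SNAI1 in DTC from -0.17 to 0.18 and ESRP2 in DTC from -0.44 to -0.09.

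After 28 days most of these differences from untreated WT were no longer called. In DTEC, ESRP1 rose, SNAI1 fell and 7 of the 9 tested members were not called, while 52.3% of all tested genes were called (26.0% higher and 26.3% lower) and 62.4% had groups that did not overlap. The DTC and DTEC comparisons share the same untreated WT libraries, so the 2 erlotinib groups were also compared directly.

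SNAI1 was at 1.37, 0.764 and 1.35 CPM in DTEC. Those were the lowest values of SNAI1 among the 12 libraries. Against untreated WT its log2 change was -1.54 ± 0.23 (edgeR adjusted p = 6.49e-05), a fall to 34.5%. SNAI2 was at 10.7, 9.55 and 9.67 CPM in DTEC, which overlapped untreated WT. Its log2 change was -0.14 ± 0.11 (edgeR adjusted p = 0.284), with a 95% interval of -0.36 to 0.09, and with total counts alone it was 0.028.

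ZEB1 was at 0.274, 0.497 and 0.577 CPM in DTEC, ZEB2 at 0.731, 0.993 and 0.467 CPM, and TWIST1 at 0.518, 0.306 and 0.192 CPM. Each overlapped untreated WT. The 95% intervals of their log2 changes were wide, at -1.33 to 0.52 for ZEB1, -0.11 to 1.46 for ZEB2 and -0.49 to 1.89 for TWIST1. At 7 to 26 counts per DTEC library, these intervals include a 2-fold fall of ZEB1 and a 2-fold rise of ZEB2 and TWIST1, but not a 2-fold change the other way.

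VIM was at 19.1, 13.6 and 9.23 CPM in DTEC. Replicates 1 and 2 were above untreated WT and replicate 3 was below it. The log2 change was 0.42 ± 0.19 (edgeR adjusted p = 0.0753). Without DTEC replicate 3 it was 0.64 (edgeR adjusted p = 0.00187), and it passed the threshold in 5 of the 16 fits run.

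CDH1 was at 421, 355 and 289 CPM in DTEC. All 3 values were above untreated WT, the lowest by a small margin. The log2 change was 0.32 ± 0.17 (edgeR adjusted p = 0.134), and it was called in 3 of the 16 fits run. ESRP1 was at 381, 332 and 293 CPM in DTEC, well above untreated WT. Its fold was 1.61, a log2 change of 0.69 ± 0.13 (edgeR adjusted p = 0.000540). ESRP2 was at 50.7, 52.8 and 56.7 CPM in DTEC and overlapped untreated WT. Its log2 change was -0.02 ± 0.09 (edgeR adjusted p = 0.862), with a 95% interval of -0.22 to 0.18 and a sign that varied with the settings.

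Between the erlotinib groups, 6 of the 9 tested members were lower in DTEC than in DTC, and ESRP1 and ESRP2 were higher. CDH1 was not called (log2 change 0.25 ± 0.17, edgeR adjusted p = 0.218). The background was 55.4% of all genes called, 28.8% higher and 26.6% lower. VIM fell by 1.79 ± 0.19 on the log2 scale (edgeR adjusted p = 2.68e-06) and SNAI2 fell by 1.59 ± 0.10 (edgeR adjusted p = 3.01e-08). ZEB1 fell by 1.43 ± 0.42 (edgeR adjusted p = 0.00947), ZEB2 fell by 1.46 ± 0.34 (edgeR adjusted p = 0.00217) and TWIST1 fell by 1.43 ± 0.50 (edgeR adjusted p = 0.0244). The 6 falls were all between 1.36 and 1.79, although SNAI1, which fell by 1.36 ± 0.23 (edgeR adjusted p = 0.000171), had not been called in DTC. ESRP1 was 2.61-fold higher in DTEC than in DTC (log2 change 1.39 ± 0.13, edgeR adjusted p = 1.07e-06) and ESRP2 was 1.34-fold higher (log2 change 0.42 ± 0.09, edgeR adjusted p = 0.00157). For each of these 8 genes the DTC and DTEC libraries did not overlap, which held for 56.7% of all tested genes.

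The TWIST1 difference between DTEC and DTC was the least secure of these. Its call was lost without DTC replicate 1 (edgeR adjusted p = 0.0519) or replicate 2 (0.0776), and without DTEC replicate 2 (0.0684) or replicate 3 (0.0929). The CDH1 difference, in contrast, was called without DTC replicate 1 (log2 change 0.48, edgeR adjusted p = 0.00311). CDH2 counts of 17 in DTC and 2 in DTEC gave a ratio of 9.46 over total counts, with an exact 95% interval of 2.25 to 84.4.

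**Figure D4:**
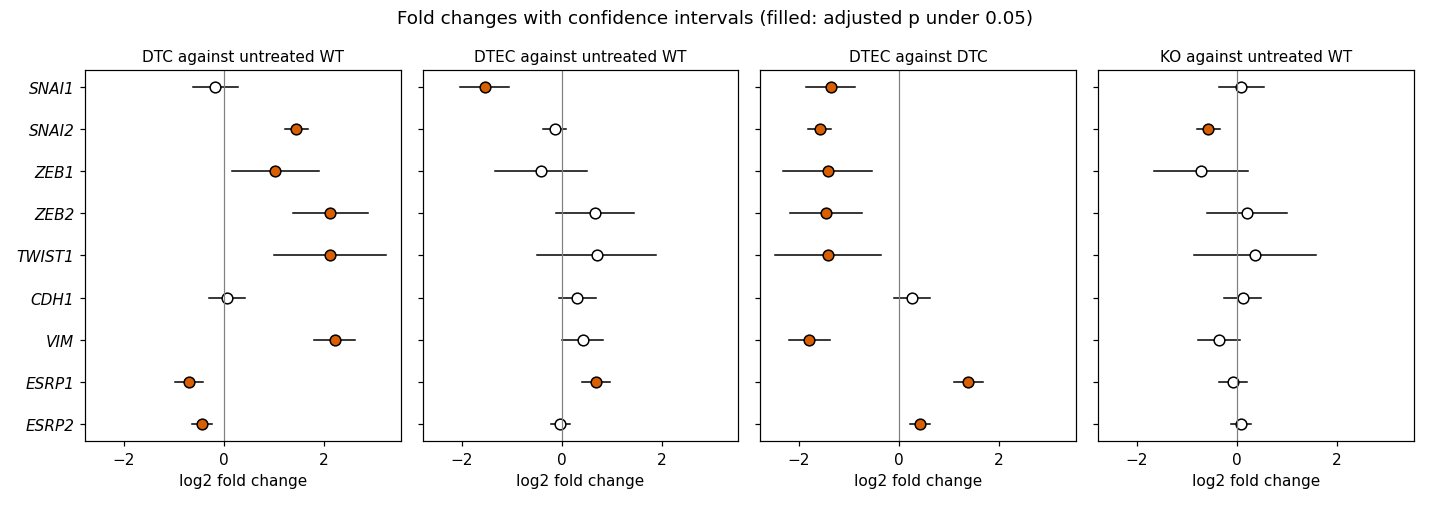
Log2 fold changes of the 9 tested members in 4 comparisons, with 95% confidence intervals from edgeR's fit and filled points for adjusted p under 0.05. SNAI2, ZEB1, ZEB2, TWIST1 and VIM lie right of 0 in DTC against untreated WT and left of 0 in DTEC against DTC, and ESRP1 and ESRP2 lie the other way round.

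The knockout line was compared with untreated WT cells. It is a single line, so loss of TDP1 and other differences of that line cannot be told apart. SNAI2 was the member that changed in KO: it was at 7.86, 7.44 and 6.97 CPM, below every untreated WT library. It fell to 67.4%, a log2 change of -0.57 ± 0.11 (edgeR adjusted p = 0.00777), where 4.31% of all tested genes were called (2.76% higher and 1.55% lower). Without KO replicate 3 the call was lost (log2 change -0.50, edgeR adjusted p = 0.0627). The other 8 tested members were not called. VIM was at 7.76, 7.90 and 8.71 CPM in KO and below every untreated WT library, but its log2 change of -0.35 ± 0.19 did not pass the test (edgeR adjusted p = 0.386). CDH1, at 315, 308 and 306 CPM, was above every untreated WT library (log2 change 0.12 ± 0.17, edgeR adjusted p = 0.789). Groups that did not overlap were common in this comparison, at 35.7% of all tested genes. For SNAI1, ESRP1 and ESRP2 the 95% intervals in KO were -0.36 to 0.55, -0.35 to 0.21 and -0.11 to 0.29.

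Ordered by group, DTC was highest for SNAI2, ZEB1, ZEB2, TWIST1, CDH2 and VIM, in each case with no overlap with the next group. The share of all tested genes with such an order was not computed. Of all tested genes, 68.9% did not overlap between DTC and untreated WT, and 56.7% did not between DTEC and DTC. For SNAI1 the KO, untreated WT and DTC libraries overlapped in turn and DTEC lay apart below them. For ESRP1, DTEC lay apart at the top and DTC apart at the bottom, with untreated WT and KO overlapping between them, whereas for ESRP2 only DTC lay apart, at the bottom. The neighbouring groups overlapped throughout for CDH1.

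Among other genes of the EMT circuit, the mesenchymal cytoskeleton and surface genes had the largest median difference of the 8 lists between DTC and untreated WT. Of 15 tested, 9 rose and 4 fell in DTC, with a median log2 change of 2.07 against 0.06 for all genes. The gene at this median was NES, at means of 0.124 CPM in untreated WT and 0.530 CPM in DTC. SPARC, MMP2 and ACTA2, also among the 9, had means of 0.108 to 0.205 CPM in untreated WT and 0.551 to 1.77 CPM in DTC. Of all tested genes, 34.0% were higher and 33.3% lower in DTC. FN1 (fibronectin, a matrix protein) was at 88.6, 97.9 and 99.4 CPM in untreated WT and at 13169, 6343 and 7091 CPM in DTC. Replicate 1 of DTC was the highest, and all 3 DTC libraries were far above the untreated range. The log2 change was 6.54 ± 0.26 (edgeR adjusted p = 2.41e-10). COL5A1, a fibrillar collagen chain, rose by 3.75 ± 0.15 (edgeR adjusted p = 1.73e-10). The 4 that fell in DTC were NT5E, AXL, S100A4 and ITGA5. NT5E went from a mean of 216 to 72.6 CPM (log2 change -1.58) and AXL from 53.1 to 22.0 CPM (-1.27). S100A4 went from 15.4 to 7.57 CPM (-1.02) and ITGA5 from 172 to 114 CPM (-0.60). In DTEC, 7 of the 15 were higher and 2 lower than in untreated WT, where 26.0% and 26.3% of all tested genes were. FN1 was still up by 3.18 ± 0.22 there (edgeR adjusted p = 1.17e-07), at 796 to 921 CPM, although VIM was not called, and SPARC (a matrix glycoprotein) was up by 3.42 ± 0.57 (edgeR adjusted p = 0.000176). In KO, COL5A1 rose by 1.32 ± 0.15 (edgeR adjusted p = 0.000162) and AXL, a receptor tyrosine kinase, fell by 1.31 ± 0.11 (edgeR adjusted p = 1.00e-05).

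The other EMT-inducing transcription factors moved in both directions. Of 8 tested, 1 rose and 3 fell in DTC, with a median log2 change of -0.15, so 4 of 8 were called against 67.3% of all genes. KLF8 rose by 2.19 ± 0.14 (edgeR adjusted p = 8.86e-09), and TCF3 (E2A, a partner of TWIST1) fell by 1.79 ± 0.18 (edgeR adjusted p = 6.14e-07). In DTEC 2 rose and 4 fell, against a background of 52.3% called, with KLF8 up by 1.65 ± 0.14 (edgeR adjusted p = 4.21e-07) and TCF3 down at a log2 change of -1.05 ± 0.17 (edgeR adjusted p = 0.000170). LEF1 was the 1 gene of this list called in KO, at -0.62 ± 0.15 (edgeR adjusted p = 0.0340), where 4.31% of all tested genes were called.

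All 11 epithelial identity transcription factors were called in DTC, 4 higher and 7 lower, against 67.3% of all tested genes. KLF4 fell by 1.20 ± 0.12 (edgeR adjusted p = 4.78e-07), and TP63, a basal-cell factor, rose by 2.94 ± 0.29 (edgeR adjusted p = 5.18e-07). In DTEC 5 rose and 2 fell, against 52.3% of all genes called. ELF3 was up by 1.33 ± 0.08 (edgeR adjusted p = 2.74e-08) and OVOL1, a repressor of ZEB1 in epithelia, was down at -1.29 ± 0.10 (edgeR adjusted p = 1.41e-07). Of the 17 epithelial splicing and adhesion partners, 5 rose and 6 fell in DTC, close to the 67.3% of all genes called. JUP (plakoglobin) rose by 1.27 ± 0.11 (edgeR adjusted p = 1.47e-07), and CRB3, a polarity protein, rose by 1.11 ± 0.20 (edgeR adjusted p = 0.000182). In DTEC 6 of them rose and 7 fell (background 52.3%), with PATJ at 1.29 ± 0.13 (edgeR adjusted p = 1.36e-06) and PKP3 at -1.24 ± 0.18 (edgeR adjusted p = 5.14e-05).

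Among the other cadherins 3 of 7 were tested. CDH3 and CDH13 were called lower in DTC, as were 33.3% of all tested genes, and CDH5 was not called. CDH13 (T-cadherin), named here after its values were seen, had 49 to 67 counts per untreated WT library, 2 to 4 per DTC library and 2 to 10 per DTEC library, and was called lower in both (edgeR adjusted p = 7.29e-07 and 1.25e-05). CDH3 (P-cadherin) fell in DTC (log2 change -0.31 ± 0.12, edgeR adjusted p = 0.0348) and rose in DTEC (0.33 ± 0.12, edgeR adjusted p = 0.0339). With libraries scaled by total counts the DTC ratio of CDH3 turned to a log2 value of 0.044. Of the 62 listed genes called in DTC, GRHL2 and ST14 were the other two whose sign turned with that scaling, and 0 of 51 turned in DTEC. Of 6 tested splicing regulators of the mesenchymal side, 1 rose and 4 fell in DTC, where 67.3% of all genes were called. PTBP1 fell by 1.82 ± 0.14 (edgeR adjusted p = 3.89e-08) and MBNL1 fell by 1.41 ± 0.14 (edgeR adjusted p = 4.27e-07), in the same group in which ESRP1 and ESRP2 fell. Of 18 partners and regulators of the SNAI and ZEB proteins, 4 rose and 11 fell in DTC and 0 were called in KO by edgeR, against 67.3% and 4.31% of all tested genes. In KO, HDAC2 and KDM1A were the 2 of the list below 0.05 before adjustment by edgeR (adjusted p = 0.227 and 0.263). KDM1A (LSD1, a histone demethylase that SNAI1 recruits) was at -1.91 ± 0.09 in DTC (edgeR adjusted p = 6.32e-10), and FBXL14, a ubiquitin ligase subunit for SNAI1, was at -1.19 ± 0.23 (edgeR adjusted p = 0.000383).

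**Figure D5:**
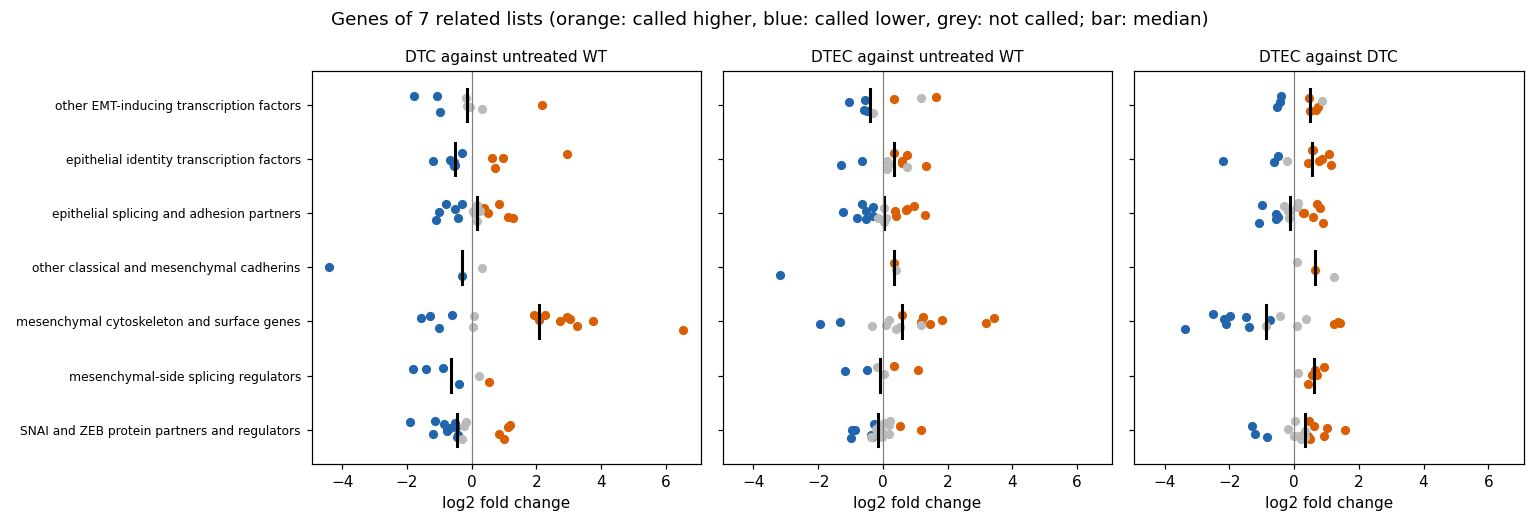
Log2 fold changes of the tested genes in 7 related lists for 3 comparisons, coloured by call, with a black bar at each list's median and small random vertical offsets. The median of the mesenchymal cytoskeleton and surface genes is at 2.07 in DTC and 0.58 in DTEC against untreated WT. The DTC median is the value of NES, at a mean of 0.530 CPM in DTC.

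Called genes made up 67.3% of all tested genes in DTC and 52.3% in DTEC, the background for the marker calls that follow. Markers of the epithelium moved in both directions in DTC. Of the 9, ELF3, CLDN4 and MUC1 rose, EPCAM, KRT8, KRT18 and KRT19 fell, and KRT7 and CLDN7 were not called, with a median log2 change of 0.08. MUC1 rose from a mean of 2.25 to 27.5 CPM, while KRT8 fell from 4015 to 1869 CPM and KRT18 from 2930 to 1184 CPM. The summed level of the 9 epithelial markers was 6540 to 7836 CPM in DTC against 11064 to 11659 in untreated WT and 9591 to 12716 in DTEC. The summed fibroblast markers were 55.1 to 57.8 CPM in DTC against 7.99 to 8.91 in untreated WT, nearly all of it COL1A1. LUM was at 0.203 to 0.557 CPM in DTC and at 0 in the other 9 libraries, and PDGFRA and DCN were at or below 0.169 CPM in every library. Of 3 tested endothelial markers, VWF rose in DTC (log2 change 3.64 ± 0.53, from a mean of 0.122 to 1.57 CPM, edgeR adjusted p = 2.88e-05). PECAM1 fell in DTC (-1.87 ± 0.11, edgeR adjusted p = 4.43e-09) and rose in DTEC (1.52 ± 0.11, edgeR adjusted p = 7.26e-08), and CDH5 was called in neither. Untreated WT libraries summed to 58.5 to 61.4 CPM over the endothelial markers, DTC libraries to 42.3 to 50.2 CPM, and DTEC libraries to 121.8 to 141.6 CPM. Of 4 tested leukocyte markers, CD68, LYZ and CD14 rose in DTC (log2 changes 0.64, 2.60 and 2.07) and LAPTM5 fell (-0.83). LYZ rose from a mean of 0.217 to 1.36 CPM and CD14 from 0.173 to 0.738 CPM. CD14 and VWF passed the count filter only with DTC libraries counted, so their calls in DTC depend on that filter. CD14 was at or below 0.299 CPM in untreated WT and 0.259 CPM in KO. VWF was at or below 0.202 CPM in untreated WT and 0.166 CPM in KO. The summed level of the leukocyte markers was 64.7 to 88.2 CPM in DTC and 76.1 to 89.3 CPM in untreated WT. The part of these markers, and of the mitochondrial share, in the changes of the members was not tested.

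Antisense neighbours were listed for ZEB1, ZEB2 and VIM, and ZEB2-AS1 was at 0 in every library. The library kit keeps strand, but whether counting used it is not given in the sources used here, so reads of a gene and its antisense partner may not have been separated. ZEB1-AS1 was at 0.648 to 0.777 CPM in DTC and at 1.21 to 2.06 CPM in DTEC, whereas ZEB1 was at 0.946 to 1.44 CPM in DTC and at 0.274 to 0.577 CPM in DTEC. These CPM are not divided by exon length, so they do not rank the 2 genes. As TPM, ZEB1-AS1 was above ZEB1 in both groups. In DTC the values were 0.657 to 0.917 for ZEB1-AS1 and 0.494 to 0.648 for ZEB1. In DTEC they were 1.25 to 2.21 and 0.131 to 0.264. ZEB1-AS1 moved opposite to ZEB1 between those groups (log2 change 1.19 ± 0.29 in DTEC against DTC, edgeR adjusted p = 0.00328). VIM-AS1 stayed at or below 1.35 CPM, against at least 7.76 CPM for VIM. Like VIM, VIM-AS1 rose in DTC (log2 change 2.43 ± 0.46, edgeR adjusted p = 0.000313) and was lower in DTEC than in DTC (-1.20 ± 0.42, edgeR adjusted p = 0.0261). VIM-AS1 was also higher in DTEC than in untreated WT (1.24 ± 0.48, edgeR adjusted p = 0.0429). VIM itself was not called there (edgeR adjusted p = 0.0753).

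The genes whose levels ran most parallel to each member were found by Pearson's r of log2 CPM over the 12 libraries, among 9799 or 9800 genes. These r values describe 12 points that share 4 group levels, the same libraries and the same scaling. For SNAI2 they were TPM4 (r = 0.989) and TP53I3 (r = 0.989). For VIM they were KRT34 (r = 0.990) and ARF4 (r = 0.988). ESRP1 ran with MACROD2 (r = 0.988) and ZNF740 (r = 0.987), and ESRP2 with SEMA4D (r = 0.981) and NUMA1 (r = 0.979). CDH1 ran with CD109 (r = 0.979) and SPTY2D1 (r = 0.950), and SNAI1 with HSD3B1 (r = 0.961) and HCCS (r = 0.957). Among the low-count members, TWIST1 ran with TRAF5 (r = 0.924) and S1PR2 (r = 0.913), ZEB1 with ZNG1E (r = 0.936) and CCDC32 (r = 0.932), and ZEB2 with CCDC14 (r = 0.963) and GLCCI1 (r = 0.957). With Spearman's rho, 1 of these genes was named again.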

How the data were processed

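Poly(A) RNA of 12 PC9 cultures was sequenced with a stranded kit as 101 bp pairs, per the labels. The authors deposited expected counts per gene, not scaled to depth; RSEM 1.3.1, Bowtie2 2.5.2, DESeq2 1.40.2 and GRCh38 are named in the submitters' processing notes without roles, and the annotation is not given in the sources used here. Counts were rounded (all member values were whole). Samples were grouped by their labels; replicate numbers were not used as pairs.

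Genes passing edgeR's filterByExpr (17115) were fitted with edgeR 4.0.16 (R 4.3.3): TMM factors, 1 coefficient per group over all 12 libraries, robust quasi-likelihood test, Benjamini-Hochberg adjustment over all tested genes, called at adjusted p under 0.05. The SE is the log2 change divided by the square root of F. CPM are TMM-scaled; TPM used GENCODE 29 exon lengths. The fit was run on simulated counts in which few genes changed in DTC, as many up as down. That run does not test the scaling of data in which 67.3% of genes were called. Total counts of 25572691 to 38373679 per library put 3 counts at about 0.1 CPM. Alternatives were other scalings, filters, DESeq2 1.42.0, 2-group fits, a replicate block and leaving out each library.

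All members were named in every comparison; from each other list, the 2 called genes of largest change with a mean of at least 1 CPM; and the 2 genes most like each member among those with at least 10 CPM. The members and lists were chosen with earlier results of these data known. Further list genes were named after their values were seen.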

Additional observations from a re-analysis of the deposited data

Results flagged for a closer look

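For 8 members the change against untreated WT differed between the 2 durations of erlotinib, by edgeR's direct test of DTEC against DTC. The 28-day minus the 7-day log2 change was -1.36 for SNAI1, -1.59 for SNAI2, -1.43 for ZEB1, -1.46 for ZEB2, -1.43 for TWIST1 and -1.79 for VIM. It was 1.39 for ESRP1 and 0.42 for ESRP2. The 2 changes share the untreated WT libraries, which cancel in this difference. Over all tested genes 55.4% differed in the same test.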

How the results depend on the processing

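SNAI2, ZEB2, TWIST1, VIM and ESRP1 in DTC, SNAI1 and ESRP1 in DTEC, and SNAI1, SNAI2, ZEB1, ZEB2, VIM, ESRP1 and ESRP2 in DTEC against DTC kept direction and call in every alternative that gave a value. Among the members, signs reversed only for changes that were not called: SNAI1 in DTC with total counts (0.18) and upper quartile scaling (0.12), SNAI2 in DTEC with total counts (0.028), and ESRP2 in DTEC with total counts (0.15), upper quartile scaling (0.093), a mean of at least 1 CPM (0.035) and only the 2 groups compared (0.0079). Leaving out 1 library took ESRP2 in DTEC from -0.076 to 0.035 and CDH1 in DTC from -0.15 to 0.28. VIM in KO was called with only the 2 groups compared (log2 change -0.33, edgeR adjusted p = 0.0370). Genes called in KO numbered 738, against 1147 with no count filter, 1113 with DESeq2, 2656 with only the 2 groups compared, and 321 to 426 with 1 library left out; the cause was not tested. The counts called in the other comparisons stayed within 1.5 times. The labels tie no day or batch to a replicate number. Deviations of same-numbered libraries correlated at -0.03 to 0.18, with 4 of 18 pairs over 0.1. Those of differently numbered libraries correlated at -0.19 to 0.12, with 2 of 36 pairs over 0.1. A replicate block gave 11775 calls in DTC, 9255 in DTEC, 9732 in DTEC against DTC and 887 in KO, changing no member's call. Spearman's rho named 1 of the 18 genes most like a member. At 3 to 38 counts for TWIST1, 7 to 49 for ZEB1, 11 to 74 for ZEB2 and 0 to 8 for CDH2, depth limits these 4 genes, and the mean of at least 1 CPM leaves them untested.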
